A study of Mus musculus with 9 samples.

Results

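The genes described here are 10 regulators of cell cycle arrest: the tumour suppressor gene Trp53, its transcriptional targets Mdm2, Ccng1, Sesn2, Plk2 and Cdkn1a, and the genes of the other cyclin-dependent kinase inhibitors Cdkn1b, Cdkn1c, Cdkn2a and Cdkn2b. They were taken by symbol, and all 10 were found among the 30406 genes that the feature tables of all 9 libraries share. The libraries are 3′ single-cell RNA-seq libraries (10x Genomics Chromium) of mouse embryonic fibroblast (MEF) cultures that were being reprogrammed to induced neurons (iNs). All cultures, WT included, had received lentiviruses for a set of neuronal transcription factors and for the doxycycline-dependent activator M2rtTA, which switches these reprogramming genes on, so no culture without them is among these libraries. The cultures were WT, Per1-/- or Per2-/- (knockouts of a circadian clock gene, alleles Per1tm1Drw and Per2tm1Drw) and were harvested on days 4, 7 and 10 of reprogramming, 1 library for each combination. By the methods of the study, the MEFs came from mid-gestation embryos without head and heart, several embryos were pooled per dish, their sex was not determined, and the cells were used after 1 passage. A MEF culture of this kind also holds macrophages and other embryonic cells.

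The p53 protein, the product of Trp53, is kept low by the ubiquitin ligase MDM2 and accumulates after DNA damage and other stress. It then raises the transcription of Cdkn1a, which encodes the inhibitor p21, and of feedback regulators such as Mdm2 itself. p21, p27 (Cdkn1b) and p57 (Cdkn1c) form the CIP/KIP family, which inhibits cyclin-dependent kinases of several phases, whereas p15 (Cdkn2b) and p16 (Cdkn2a) belong to the INK4 family, which inhibits CDK4 and CDK6. Cdkn2a also encodes p19Arf, which holds back MDM2 and so joins both pathways. MEFs are known to raise Cdkn2a and Cdkn1a as they age in culture, and both pathways are known barriers to the reprogramming of fibroblasts.

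Positions of the genes are given for GRCm38 (GENCODE M21). Cdkn2a (ENSMUSG00000044303, chr4:89274471-89294653, minus strand) and Cdkn2b (ENSMUSG00000073802, chr4:89306299-89311039, minus strand) are neighbours, 11645 bases apart. The transcripts for p16 and p19Arf share their 3′ exons, so a 3′ library counts them together, and a value of Cdkn2a below is the sum of both. Cdkn1a (ENSMUSG00000023067) lies at chr17:29090976-29100727 on the plus strand and Ccng1 (ENSMUSG00000020326) at chr11:40748552-40755311 on the minus strand.

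The promoters of Cdkn1a and Ccng1 are shown because they held the closest matches to the p53 response element in the search described here. Both are p53 targets that the results below return to, in some comparisons with different directions. RefSeq promoters (GRCm38.p6, from 250 bases before to 50 bases after a transcript's start) were matched for 9 of the 10 genes, in 11 entries, and Cdkn1c had no entry. Each was searched on both strands for the p53 response element, which consists of 2 decamers in direct succession (20 positions), with the core bases of both decamers required. An element with 19 of 20 positions matched was present in the promoter of Ccng1 and in the upstream promoter of Cdkn1a, which has a second, downstream entry. It is printed in capitals within its surrounding 60 bases, 5′ to 3′ on the strand of the gene:
Cdkn1a, chr17:29090908-29090967, plus strand, element 51 to 32 bases before the start: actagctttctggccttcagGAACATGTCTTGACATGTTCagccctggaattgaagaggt
Ccng1, chr11:40755442-40755501, minus strand, element 195 to 176 bases before the start: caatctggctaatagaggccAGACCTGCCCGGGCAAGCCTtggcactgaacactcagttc
Of 32851 promoters, 22 (0.0670%) held a match of at least 19 positions and 453 (1.38%) one of at least 17. Cdkn1b and Trp53 held 17 positions, and the remaining promoters held 15 or fewer. Among 21 other p53 target genes with a promoter entry, 5 held at least 17 positions and 1 at least 19. A match is a description of these letters and not a test of binding.

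The 9 matrices held 95603 barcodes, of which 73557 were kept as single cells after limits on UMI and mitochondrial UMI and after removal of doublets, 5625 to 10517 per library. A UMI marks 1 captured transcript. Library totals ranged from 126625215 to 353198559 UMI, and the median UMI of a kept cell from 14150 to 27266. The library of WT on day 10 stood apart, since 55.4% of its barcodes passed the limits and the median of all its barcodes was 3552 UMI. No pair of libraries shared more than 38 barcodes. Transcript of the targeted gene was not lower under its knockout label: Per1 ranged from 9.15 to 10.3 CPM (UMI per 1000000 UMI) in Per1-/- against 6.31 to 7.76 CPM in WT, and Per2 from 4.97 to 6.39 CPM in Per2-/- against 2.57 to 3.08 CPM in WT, so these counts do not check the knockout labels. The study also examined both proteins by western blot, which is not analysed here. Xist, which is transcribed from the inactive X chromosome of female cells, was at 0.0679 and 0.0599 CPM in Per1-/- on days 7 and 10 and between 346.6 and 996.1 CPM in the other 7 libraries, so the embryos behind the cultures differed in sex between libraries of 1 genotype. Day 10 was processed with another Cell Ranger version and gene table than days 4 and 7 per the file headers, so day 10 and that processing cannot be told apart.

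Cells were clustered without the 10 genes and named by marker genes, with the ending "-like" because the names were rebuilt from the deposited counts. Of the kept cells, 39065 were fibroblast-like, 6752 neuron-like and 6433 macrophage-like, and smaller classes were skeletal muscle-like (5086), Schwann-like (2513), astrocyte-like (862) and mesothelial-like (476). The other 12370 cells were left unnamed and enter only the results for all cells. They were 46.3% of the cells of WT on day 10, mostly a cluster of which that library held 98.5%, and 6.87% to 22.0% of the others. The largest unnamed cluster, cluster 3 with 5806 cells before removal of doublets, had 16 of the 17 fibroblast markers present. Its cells are therefore missing from the fibroblast-like values. Sums of the same markers that gave the names describe the classes and are no check of the names. The 17 fibroblast markers together had a median of 33218 CPM over libraries in fibroblast-like, 741 CPM in neuron-like and 322 CPM in macrophage-like cells. The 15 neuron markers had 6777 CPM in neuron-like cells, and the 15 macrophage markers had 21934 CPM in macrophage-like cells. Counts were summed per library and class, and a value below is the CPM of such a sum. In such sums, fewer expressing cells and less RNA per cell cannot be told apart. With 1 library per genotype and day, the spread given is that over libraries, and p-values measure the spread between these libraries. Counting error was small beside it for most values: Cdkn1a in fibroblast-like cells of WT on day 4 was 388 CPM with an exact Poisson 95% interval of 385 to 392 CPM, whereas the lowest value of Cdkn2b in macrophage-like cells, 0.669 CPM, had an interval of 0.321 to 1.23 CPM.

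In fibroblast-like cells, the largest class, the genes of the p53 network were measured in every library. Trp53 had a lowest, median and highest value of 60.5, 72.2 and 86.6 CPM over the 9 libraries, a narrow range. Mdm2, whose protein marks p53 for degradation, had 34.6, 50.1 and 69.6 CPM, and Ccng1, a cyclin that p53 induces and that acts back on MDM2, had 65.5, 129 and 207 CPM. Both were highest in WT on day 4. Sesn2, which encodes a stress-induced inhibitor of mTORC1 signalling, had 28.7, 35.5 and 40.1 CPM, and Plk2, a polo-like kinase gene, had 31.6, 59.0 and 85.0 CPM. Cdkn1a had 158, 261 and 388 CPM, lowest in Per2-/- on day 7 and highest in WT on day 4.

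Among the other inhibitors of fibroblast-like cells, Cdkn1b was nearly flat, with 71.0, 80.7 and 94.5 CPM. Cdkn1c, an imprinted gene that restrains growth of the embryo, had 781, 1054 and 1522 CPM. Of the neighbours at the INK4 locus, Cdkn2a had 138, 226 and 340 CPM and Cdkn2b 17.7, 31.9 and 39.6 CPM. Cdkn2a reached over 300 CPM in WT on all 3 days (314, 316 and 340 CPM) and in Per2-/- on day 10 (324 CPM), and the remaining 5 libraries lay between 138 and 226 CPM.

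**Figure D1:**
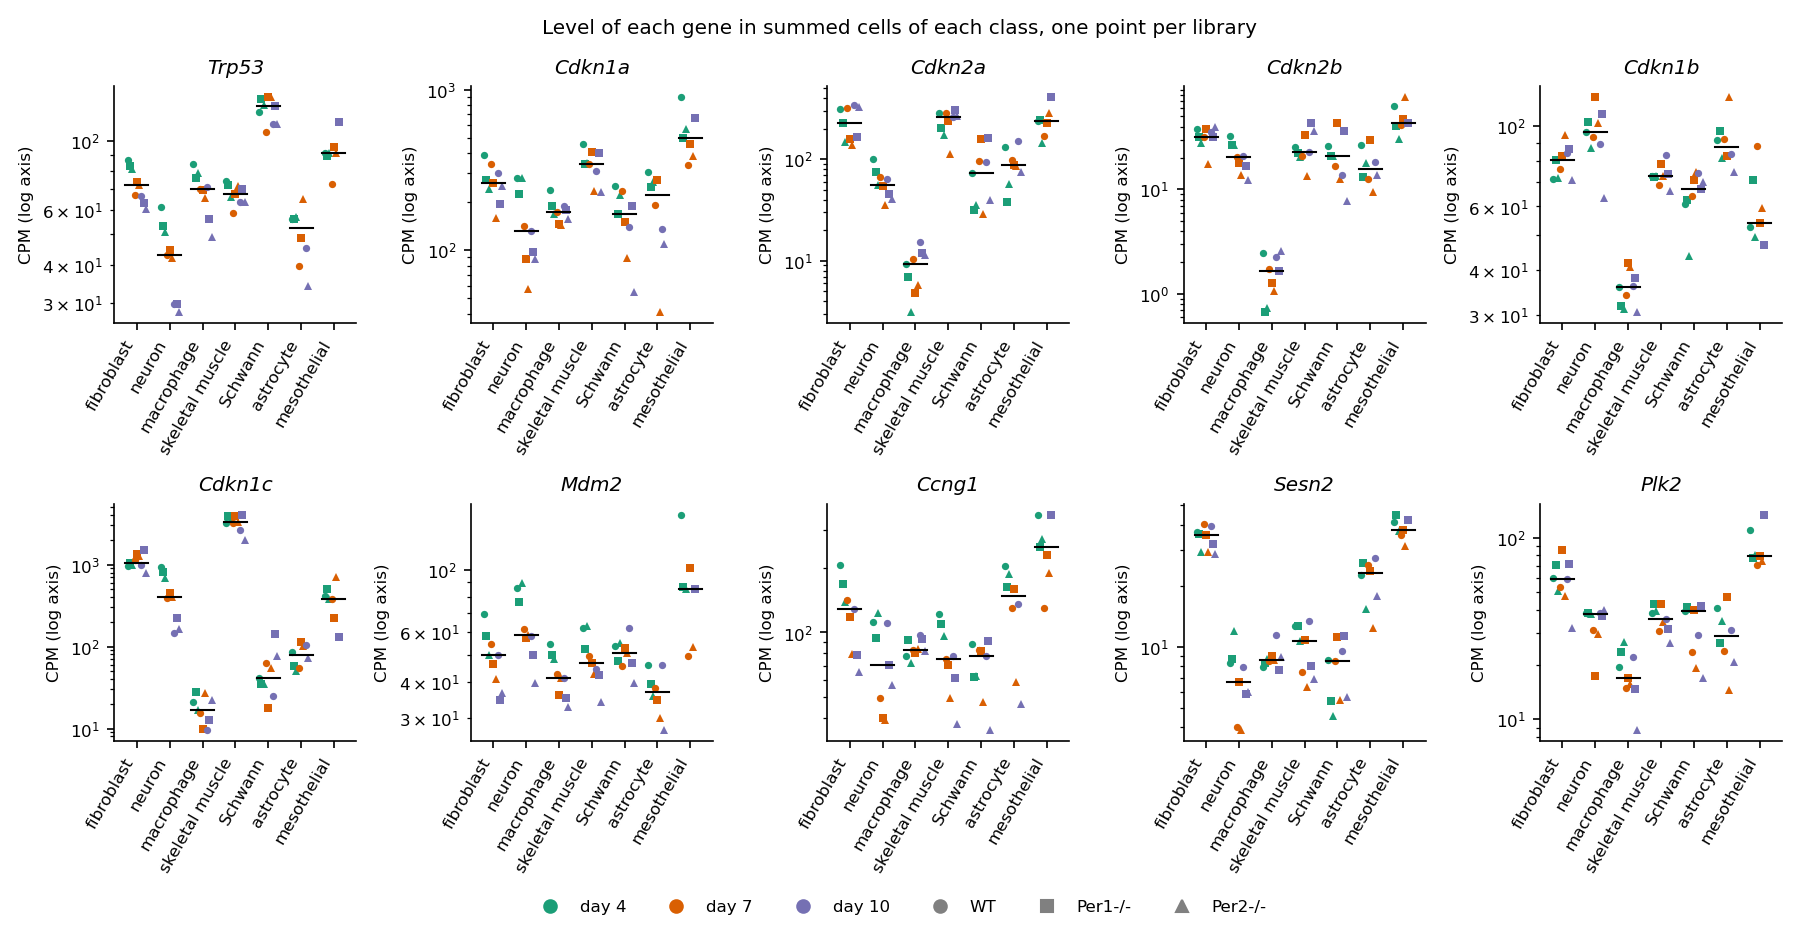
CPM of each of the 10 genes (1 panel per gene, log axis) by cell class, with 1 point per library and class. Cdkn1c ranges from 2012 to 4062 CPM in skeletal muscle-like cells and from 9.62 to 27.6 CPM in macrophage-like cells, and the macrophage-like points of Cdkn2a and Cdkn2b lie below those of fibroblast-like cells in every library.

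Neuron-like cells carried less transcript of most of these genes than the fibroblast-like cells of the same libraries. The test was the quasi-likelihood F-test of edgeR over the sums of all classes with the library as a block, and adjusted p-values cover all 15409 genes tested. Of the 10 genes, 8 were lower in neuron-like than in fibroblast-like cells, where 79.3% of all genes were called in either direction and 38.1% were called lower. The largest difference was in Sesn2, with a median of 6.67 CPM (range 3.88 to 12.01) against 35.5 CPM, a log2 fold of -2.59 ± 0.14 (SE, adjusted p = 9.2e-23). Cdkn2a followed with -2.26 ± 0.24, from a median of 56.1 CPM and a range of 35.4 to 100.4 CPM. The groups did not overlap for either gene.

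The other genes of the p53 network differed less between these classes. Trp53 differed by -1.11 ± 0.08 (28.1 to 61.3 CPM, median 42.8), Plk2 by -1.04 ± 0.14 and Ccng1 by -1.02 ± 0.18. Cdkn1a differed by -1.23 ± 0.19, with 57.1 to 281 CPM and a median of 131 CPM, and was below its own library's fibroblast-like value in 8 of 9 libraries. In Per2-/- on day 4 it was higher in neuron-like cells, 281 against 238 CPM. Mdm2 did not pass, with 0.05 ± 0.09 (adjusted p = 0.62). On the plain CPM scale Mdm2 was higher in neuron-like cells in 9 of 9 libraries, at 39.9 to 89.4 CPM, where the median gene stood 0.31 log2 units higher as well. The fit is relative to that shift.

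Of the CIP/KIP and INK4 genes, Cdkn1c was lower in neuron-like cells by -1.67 ± 0.29 (adjusted p = 1.2e-06), with a wide range of 148 to 941 CPM that followed the day. Cdkn2b was lower by -0.93 ± 0.21 (12.4 to 32.6 CPM). Cdkn1b, the inhibitor p27 that is widely present in cells that do not divide, did not pass, with -0.08 ± 0.08 and 63.4 to 121 CPM. Transcripts of defining fibroblast genes in neuron-like cells stood at a median of 1.77% (Col1a1), 2.51% (Col3a1) and 1.43% (Dcn) of the fibroblast-like value, and those of Cdkn1c, Cdkn2a and Sesn2 at 33.4%, 27.3% and 20.1%. The part of background RNA in these values was not tested.

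In macrophage-like cells 6 of the 10 genes were lower than in fibroblast-like cells and 1 was higher, where 82.9% of all genes were called. Of these 6, Cdkn1c, Cdkn2a, Cdkn2b, Sesn2 and Plk2 were also lower in neuron-like cells. Cdkn1c was at 9.62 to 27.6 CPM, a log2 fold of -5.71 ± 0.35 (adjusted p = 8.2e-21). Its median was 1.69% of the fibroblast-like value (0.728% to 2.85%), which lies within the range of Col1a1 (0.513% to 2.37%) and Col3a1 (0.572% to 2.80%) apart from its highest library. The part of background RNA in the counts was not tested. Cdkn2a (3.14 to 15.4 CPM, -4.48 ± 0.27) and Cdkn2b (0.669 to 2.58 CPM, -4.07 ± 0.26) stood at a median of 3.31% and 5.51% of the fibroblast-like value. Their medians were above those of the collagens, and their lowest libraries were within the range of the collagens.

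Of the p53 targets in macrophage-like cells, 3 did not pass the test in either direction. Mdm2 differed by 0.09 ± 0.09 (32.8 to 54.8 CPM), Ccng1 by -0.15 ± 0.18 (71.7 to 97.4 CPM) and Cdkn1a by -0.30 ± 0.19 (143 to 237 CPM). On the plain CPM scale Cdkn1a was below the fibroblast-like value in 9 of 9 libraries, at a median of 62.4% of it. Trp53 was called higher by 0.19 ± 0.08 (adjusted p = 0.021), although its CPM was below that of the fibroblast-like cells in 7 of 9 libraries, where the median gene was at -0.20 log2 units on the plain scale. That call was lost with DESeq2, with its size factors, with no filter on low counts, and without WT on day 7, Per1-/- on day 7 or WT on day 10. Sesn2 (-1.65 ± 0.13), Plk2 (-1.45 ± 0.14) and Cdkn1b (-0.88 ± 0.08) were lower, each in 9 of 9 libraries.

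The smaller classes added a contrast for Cdkn1c. In skeletal muscle-like cells, where p57 is known to take part in the exit of myoblasts from the cell cycle, Cdkn1c was at 2012 to 4062 CPM, above the fibroblast-like cells of the same library in 9 of 9 libraries (1.32 ± 0.28, adjusted p = 6.9e-05; 64.5% of genes called). Sesn2 (-2.06 ± 0.13), Ccng1, Plk2, Cdkn2b, Cdkn1b, Trp53 and Mdm2 were lower there, and Cdkn1a and Cdkn2a did not pass. In Schwann-like cells (67.0% of genes called) Cdkn1c was at 18.0 to 141 CPM (-4.56 ± 0.33), Cdkn1a, Cdkn1b, Cdkn2a, Cdkn2b, Ccng1, Sesn2 and Plk2 were lower too, Mdm2 did not pass, and Trp53 was higher by 0.58 ± 0.08, at 107 to 139 CPM in 9 of 9 libraries. Astrocyte-like cells entered with 8 libraries of at least 20 cells (64.8% called, and 5312 of 15409 genes called lower). They were lower in 8 of the 10 genes, with Cdkn1c at 51.0 to 113 CPM and Ccng1 and Cdkn1b not past the threshold.

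In mesothelial-like cells 4 of the p53 targets were higher than in fibroblast-like cells. These cells, which line the body cavities, entered with 7 libraries of 24 to 106 cells. Of all genes 38.5% were called, and 2593 of 15409 were called higher. Of the 10 genes 5 were higher: Ccng1 by 0.92 ± 0.19, Cdkn1a by 0.85 ± 0.21, Mdm2 by 0.74 ± 0.11, Plk2 by 0.48 ± 0.16 and Trp53 by 0.22 ± 0.09. Cdkn1a reached 902 CPM in WT on day 4 (388 CPM in fibroblast-like cells of that library), and it was higher than in fibroblast-like cells in 6 of 7 libraries, WT on day 7 being the exception. Cdkn1c (-1.74 ± 0.32) and Cdkn1b (-0.54 ± 0.09) were lower, and Sesn2 (0.10 ± 0.15), Cdkn2a (0.09 ± 0.25) and Cdkn2b (0.56 ± 0.23) did not pass. The call of Trp53 was made in only 6 of 15 fits over all settings. It was lost in 7 of the 9 fits that left out 1 library (all but those without WT on day 4 and without Per2-/- on day 10), with no filter (0.14) and at Leiden resolution 2 (0.19). That of Plk2 was lost without WT on day 4, without Per1-/- on day 10 and with no filter (0.39).

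The share of cells in which a gene was detected followed the sums. Each cell was thinned to 3000 UMI so that depth was equal. Cdkn2a was then detected in 27.02% to 52.5% of fibroblast-like cells, 8.38% to 19.9% of neuron-like cells and 1.08% to 3.99% of macrophage-like cells, and its median share before thinning was 83.3%, 33.5% and 15.02%. Cdkn1a was detected in 23.4% to 48.4% of fibroblast-like, 10.4% to 23.4% of neuron-like and 25.2% to 39.3% of macrophage-like cells. Without thinning its medians were 71.7%, 36.1% and 68.6%. At this equal depth Cdkn1a was thus found in fewer neuron-like than macrophage-like cells, and Cdkn2a mainly in fibroblast-like cells among these 3 classes. Sesn2 was found in 7.03% to 11.0% of fibroblast-like and 0.660% to 2.98% of neuron-like cells after thinning.

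Levels by day asked whether the arrest genes changed as reprogramming went on. The day was tested within each class with genotype and day as factors, so that the 3 genotypes served as repeats of a day. Cells with a UMI of a Y-linked gene were 52.9%, 94.2% and 93.3% in Per1-/- on days 4, 7 and 10. They were 52.7%, 25.3% and 48.5% in Per2-/- and 27.2%, 24.6% and 23.7% in WT. The sex mix of the embryos thus differed between days in both knockouts, and its part in the differences by day was not tested. The makeup of the classes changed with the day as well: of neuron-like cells, clusters 8 and 16 held 99.7% to 99.9% at the first day, 84.7% to 97.9% by day 7 and only 5.99% to 13.1% by day 10, when cluster 19 held 86.9% to 94.0%. In fibroblast-like cells clusters 0 and 1 went from 52.4% to 75.9% on day 4 to 2.16% to 22.9% on day 10, and in macrophage-like cells cluster 9 went from 75.8% to 84.3% to 1.63% to 10.9%. Day 10 therefore compares mostly different clusters, and the calls of day 10 within the 3 classes are given with their values in the clusters just named. Other clusters, such as fibroblast-like cluster 6 and macrophage-like cluster 21, also held cells in every library and are not in these values. That restriction was chosen after the data were seen.

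In neuron-like cells the genes fell together between days 4 and 7. Of the 10 genes, 9 were lower on day 7, against 19.5% of all genes called and 8.77% called lower. Cdkn1a was at 280, 224 and 281 CPM in WT, Per1-/- and Per2-/- on day 4 and at 140, 88.3 and 57.1 CPM on day 7, a log2 fold of -1.54 ± 0.19 (adjusted p = 0.00023). Ccng1 was at 112, 94.4 and 123 CPM on day 4 and at 49.5, 40.0 and 39.0 CPM on day 7 (-1.39 ± 0.16). For both targets every value of day 4 was higher than every value of day 7.

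Cdkn1c in neuron-like cells was at 941, 811 and 683 CPM on day 4, 393, 452 and 401 CPM on day 7 and 148, 220 and 162 CPM on day 10. It differed by -0.98 ± 0.13 on day 7 and by -2.13 ± 0.14 on day 10 (adjusted p = 3.4e-07), and the 3 days did not overlap. Within clusters 8 and 16 the value of day 10 was -0.22 ± 0.17 and was not called. Further genes lower on day 7 were Sesn2 (-1.12 ± 0.25), Cdkn2b (-0.75 ± 0.13), Cdkn2a (-0.59 ± 0.11), Plk2 (-0.53 ± 0.14), Mdm2 (-0.52 ± 0.11) and Trp53 itself (-0.37 ± 0.10), whereas Cdkn1b was at 0.13 ± 0.11. Within clusters 8 and 16 alone, 8 genes remained called on day 7, with Cdkn1a at -1.47 ± 0.21 and Ccng1 at -1.37 ± 0.12, and Trp53 at -0.34 ± 0.14 did not pass. The shares of all genes called given above are those of the whole class, and no share within clusters 8 and 16 is given. The mix of these clusters changed too. In Per1-/- cluster 8 went from 55.6% of the class on day 4 to 3.21% on day 7 and cluster 16 from 44.2% to 91.3%. The calls of Plk2, Sesn2 and Trp53 were lost without some libraries, for Plk2 any of WT and Per1-/- on day 4 and Per1-/- and Per2-/- on day 7, for Sesn2 any of Per2-/- on day 4 and WT and Per2-/- on day 7, and for Trp53 any of WT on day 4 and the 3 libraries of day 7. At Leiden resolution 2 the value of Plk2 reversed to 0.029.

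Other targets of p53 came from a list of 29 genes such as Bax and Fas. On day 7 in neuron-like cells, 15 of the 28 tested were lower and 13 did not pass, where 8.77% of all genes were called lower, with a median log2 fold of -0.56 against -0.01 for all genes. The largest differences were those of Psrc1 (-2.90 ± 0.26), the death receptor gene Fas (-2.55 ± 0.71) and the ectodysplasin receptor gene Eda2r (-2.11 ± 0.28). Of 39 cell cycle genes tested in neuron-like cells, Mcm6 was higher and none was lower.

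On day 10, 7 of the 10 genes were lower in neuron-like cells than on day 4. Of all genes 49.1% were called, and 3296 of 13787 were called lower. Beside Cdkn1c, the 7 genes were Cdkn1a (-1.26 ± 0.18; 131, 97.1 and 88.2 CPM), Trp53 (-0.83 ± 0.10; 29.9, 29.8 and 28.1 CPM), Cdkn2b (-0.73 ± 0.13), Mdm2 (-0.72 ± 0.11), Cdkn2a (-0.52 ± 0.11) and Ccng1 (-0.44 ± 0.15). The values of Ccng1 were 111, 70.8 and 57.1 CPM, and its call was lost without Per2-/- on day 4 (-0.21), without Per1-/- on day 10 (-0.46), without Per2-/- on day 10 (-0.21), at Leiden resolution 2 (-0.39) and with no genotype term (-0.42). In clusters 8 and 16, which hold 20 to 46 cells per library on day 10, 2 of these calls were made, Ccng1 (-1.48 ± 0.20) and Cdkn1a (-1.31 ± 0.28), and Mdm2 was at -0.53 ± 0.18 (adjusted p = 0.15), Cdkn2b at -0.23 ± 0.27, Trp53 at -0.097 ± 0.23 and Cdkn2a at 0.43 ± 0.15. Levels of Cdkn1c differed between the clusters of that day: cluster 19 had 137 CPM of Cdkn1c on day 10, and clusters 8 and 16 had 855 and 503 CPM. The 49.1% above is the share in the whole class, and no share of all genes within clusters 8 and 16 is given. The part of the change of clusters in the calls of day 10 was not tested.

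**Figure D2:**
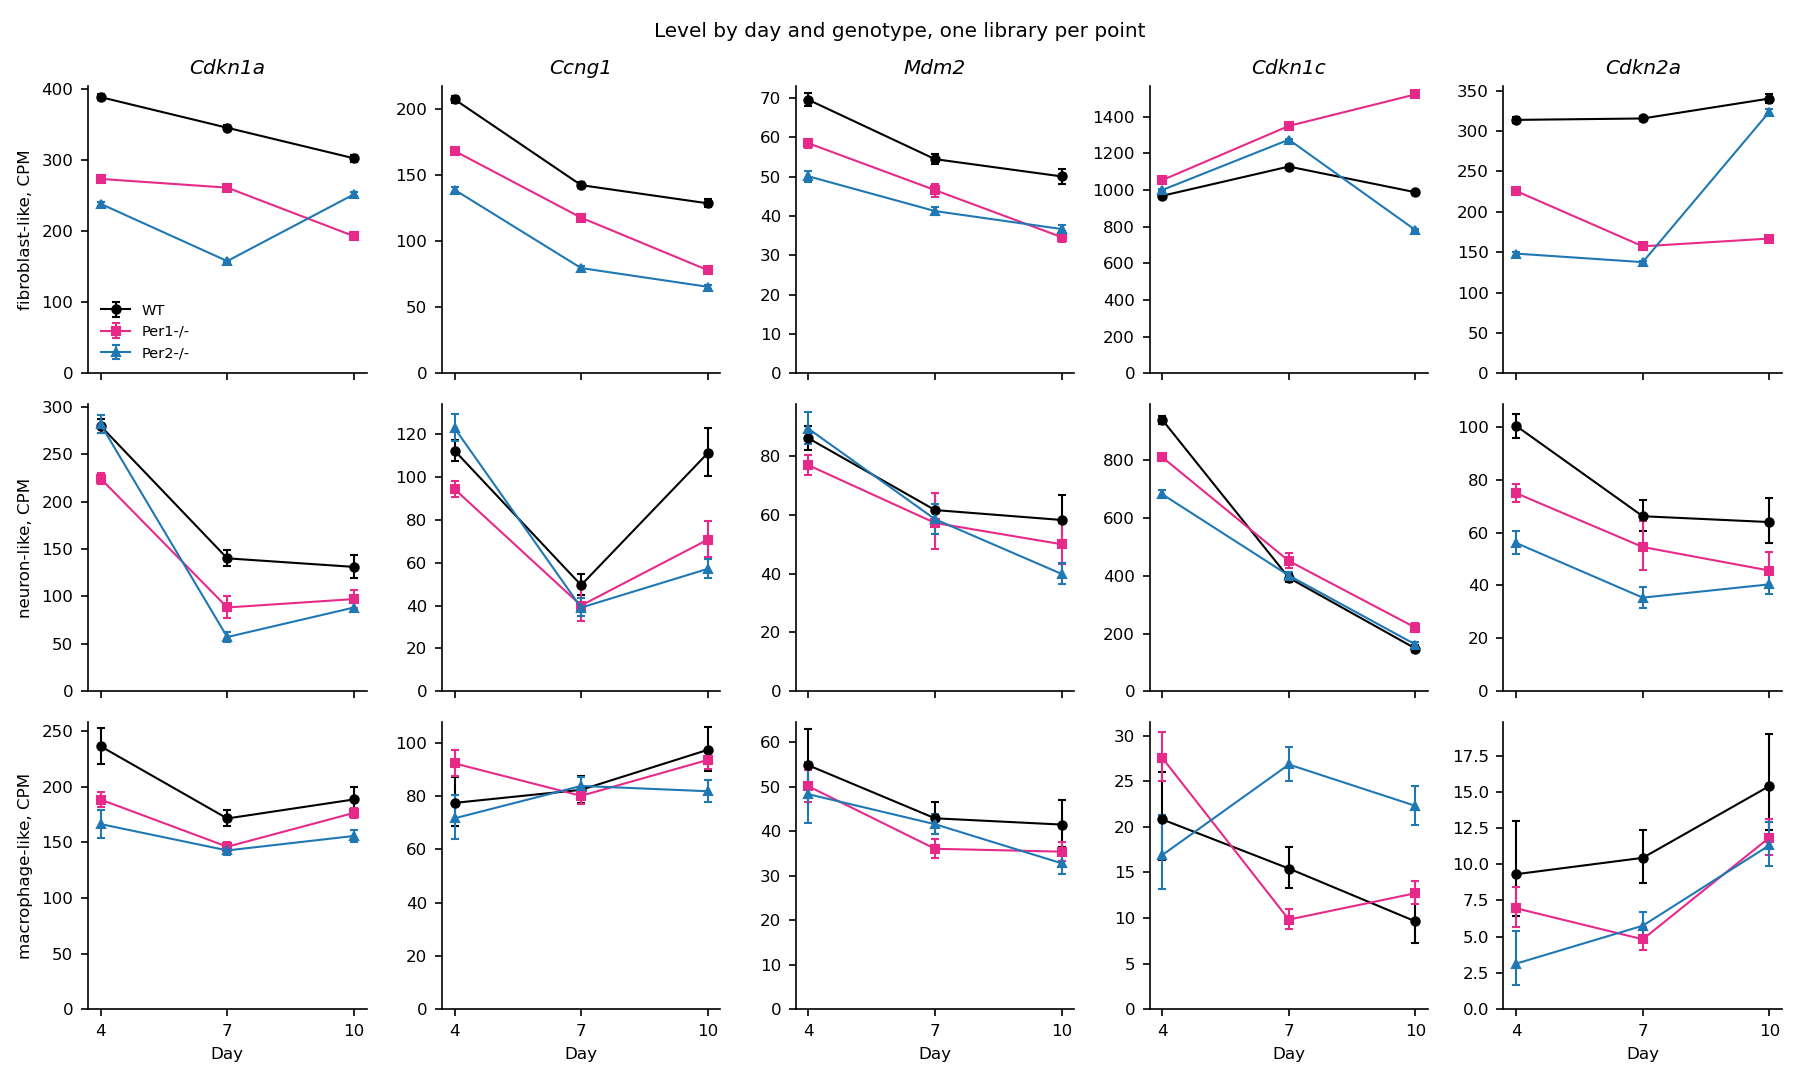
CPM of Cdkn1a, Ccng1, Mdm2, Cdkn1c and Cdkn2a (columns) against the day of reprogramming (4, 7 and 10) in fibroblast-like, neuron-like and macrophage-like cells (rows). There is 1 point per library and 1 line per genotype, with bars for the exact Poisson 95% interval. In neuron-like cells Cdkn1c falls from 683 to 941 CPM on day 4 to 148 to 220 CPM on day 10 in all 3 genotypes, with most cells of day 10 in another cluster than those of day 4, whereas in fibroblast-like cells it stays between 781 and 1522 CPM.

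In fibroblast-like cells the genes called by day were Ccng1, Mdm2 and Trp53. Their number was not tested against that of neuron-like cells. On day 7 Ccng1 was lower by -0.64 ± 0.11 (adjusted p = 0.038), 1 of the 10 genes against 2.18% of all genes. This call was lost without any 1 of 7 libraries, namely the 6 of days 4 and 7 and Per1-/- on day 10. On day 10, 3 of the 10 were lower, where 17.6% of all genes were called and 1377 of 16940 were called lower. Ccng1 went from 207, 168 and 139 CPM in WT, Per1-/- and Per2-/- on day 4 to 129, 78.1 and 65.5 CPM on day 10 (-0.99 ± 0.11, adjusted p = 0.0021), Mdm2 from 69.6, 58.5 and 50.1 to 50.1, 34.6 and 36.7 CPM (-0.59 ± 0.09) and Trp53 from 86.6, 82.9 and 81.0 to 66.7, 63.0 and 60.5 CPM (-0.43 ± 0.08). The call of Trp53 was lost without Per1-/- on day 10 (-0.44, adjusted p = 0.059). For Ccng1 and Mdm2 each genotype fell between the days. Each of these genes was lower on day 10 in every genotype.

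Restricted to clusters 0 and 1, which hold 134 to 473 cells per library on day 10, 0 of the 10 genes were called by edgeR on day 10, with Ccng1 at 0.03 ± 0.11, Mdm2 at -0.0037 ± 0.10 and Trp53 at -0.22 ± 0.10. No share of all genes called within clusters 0 and 1 is given, since 17.6% is that of the whole class. With fewer cells per sum, 0 calls does not show that the day had no effect there. Clusters outside this pair included cluster 7, of whose 3622 cells on day 10 Per2-/- held 3457. The part of the change of clusters in the differences of day 10 was not tested. On day 7 the value of Ccng1 in these clusters was -0.57 ± 0.11 (adjusted p = 0.037), close to that of the whole class. The mix of the pair moved between these days as well. In Per1-/- cluster 1 went from 37.8% to 3.14% of the class and cluster 0 from 24.2% to 73.0%. Cdkn1a and Cdkn2a did not pass in the class on day 10, with -0.27 ± 0.21 and 0.27 ± 0.29. Gene lists were tested in the whole class only and not within clusters 0 and 1. In the whole class, 14 of the 29 other p53 targets were lower and 2 higher on day 10, with a median of -0.52 against 0.01 for all genes. The lower ones were led by Pidd1 (-1.32 ± 0.19), Pmaip1 (-1.29 ± 0.28) and Psrc1 (-1.24 ± 0.16). Cell cycle genes were lower in the same libraries, 25 of 47 on day 7 and 43 of 47 on day 10, and their part in the values of the p53 targets was not tested. Of 17 senescence-associated genes, 2 were higher on day 10 (Igfbp7 and Igfbp4) and 2 were lower, among them the lamin gene Lmnb1 (-1.14 ± 0.15), a share near the 17.6% of all genes called.

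In macrophage-like cells 0 of the 10 genes were called on day 7 by edgeR, against 0.428% of all genes. DESeq2 called 0 of them as well, and 516 of all genes, while 2523 genes had an unadjusted p under 0.05 in edgeR. On day 10, where 16.9% of genes were called, Mdm2 was lower (-0.42 ± 0.09), Trp53 was lower (-0.38 ± 0.11, adjusted p = 0.046) and Cdkn2a was higher (1.07 ± 0.24). Cdkn2a went from 3.14 to 9.31 CPM on day 4 to 11.3 to 15.4 CPM on day 10, and the part of background RNA in these low levels was not tested. The call of Trp53 was lost without any 1 of the 9 libraries, that of Mdm2 without Per1-/- on day 4 or any library of day 10, and that of Cdkn2a without Per1-/- on day 4, Per1-/- on day 10 or Per2-/- on day 10. Restricted to cluster 9, with 22 to 25 cells per library on day 10, none of these 3 calls was made, with Cdkn2a at 1.55 ± 0.47 (adjusted p = 0.16), Mdm2 at -0.011 ± 0.19 and Trp53 at 0.092 ± 0.16, and Plk2 was higher (1.66 ± 0.27). No share of all genes called within cluster 9 is given beside these calls. Ccng1 was nearly level in macrophage-like cells, at 71.7 to 92.4 CPM on day 4 and 81.9 to 97.4 CPM on day 10.

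Whether the step from day 4 to day 10 differed between classes was tested as an interaction over 16465 genes. Between neuron-like and fibroblast-like cells, 6 of the 10 genes differed, against 35.8% of all genes. The change of Cdkn1c was lower in neuron-like cells by -2.21 ± 0.30 (adjusted p = 9.3e-05), that of Cdkn1a by -1.02 ± 0.24, of Cdkn2b by -0.93 ± 0.23, of Cdkn2a by -0.84 ± 0.23 and of Trp53 by -0.44 ± 0.10. Ccng1 went the other way, with 0.50 ± 0.17 (adjusted p = 0.034), since it was lower by more in fibroblast-like cells when whole classes were compared. This call was lost without any 1 of 5 libraries. In the restrictions to clusters given above, the order was the opposite. Ccng1 on day 10 was at -1.48 in the neuron-like and at 0.03 in the fibroblast-like clusters. The interaction was not tested within clusters. The call of Cdkn2a was lost without WT on day 4 or Per2-/- on day 10, and that of Cdkn2b without Per2-/- on day 10. Between macrophage-like and fibroblast-like cells 14.4% of genes differed, and Ccng1 was the 1 gene of the 10, with 1.32 ± 0.17 (adjusted p = 0.00037). These differences compare classes whose clusters changed with the day in each class.

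In all cells together, where 9.73% and 22.6% of genes were called on days 7 and 10, Ccng1 was lower by -0.55 ± 0.11 and -0.80 ± 0.11 and Mdm2 by -0.33 ± 0.08 and -0.56 ± 0.08. The remaining 8 genes did not pass on either day. On day 7 the call of Ccng1 was lost without any 1 of 4 libraries and that of Mdm2 without any 1 of 8. The classes changed their shares with the day. Neuron-like cells were 13.9% to 18.3% of a library on day 4 and 3.08% to 7.30% on day 10. Macrophage-like cells were 1.76% to 4.30% and 4.07% to 16.1%. The part of these shares in the values of all cells was not tested.

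The knockout of a Per gene gave no call in any of the 10 genes by edgeR in fibroblast-like, neuron-like or macrophage-like cells or in all cells, with the 3 days as repeats of a genotype. Few other genes passed: for Per1-/- against WT 0.0% of genes in fibroblast-like and in neuron-like cells, 0.0158% in macrophage-like and 2.48% in all cells, and for Per2-/- against WT 0.0%, 0.0%, 0.0% and 0.00532%. At an unadjusted p under 0.05 edgeR gave 1528 and 1339 genes in fibroblast-like cells for Per1-/- and Per2-/-, 505 and 637 in neuron-like, 888 and 2060 in macrophage-like and 3285 and 1615 in all cells. DESeq2 called none of the 10 genes for Per1-/- in these classes. For Per2-/- it called Ccng1 in fibroblast-like cells and in all cells and Cdkn2a in neuron-like cells, and none in macrophage-like cells. Of all genes, DESeq2 called 238, 6, 64 and 1323 for Per1-/- in fibroblast-like, neuron-like, macrophage-like and all cells. For Per2-/- it called 142, 7, 210 and 300 in the same order. With the summed level of Y-linked genes as a covariate, which stands for the sex of the embryos, edgeR called 0 of the 10 genes in each of these 8 comparisons. Without it edgeR made no call either, so this outcome adds little. Y-linked genes were at 117, 209 and 216 CPM in Per1-/- and at 61.5, 53.2 and 55.1 CPM in WT on days 4, 7 and 10. Sex and the Per1 genotype therefore cannot be told apart well.

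The values by genotype were not level in spite of this. In fibroblast-like cells WT had the highest Cdkn1a, Ccng1 and Mdm2 of the 3 genotypes on each day. Cdkn1a stood at 388, 345 and 302 CPM in WT on days 4, 7 and 10, at 273, 261 and 193 CPM in Per1-/- and at 238, 158 and 252 CPM in Per2-/-, with differences from WT of -0.46 ± 0.21 (adjusted p = 0.57) and -0.61 ± 0.21 (adjusted p = 0.58). Ccng1 differed by -0.37 ± 0.11 in Per1-/- and by -0.73 ± 0.11 in Per2-/- (adjusted p = 0.32), and Cdkn2a by -0.76 ± 0.29 and -0.68 ± 0.29. The genotypes differed in their clusters as well: on day 7 cluster 1 held 26.9% of the fibroblast-like cells of WT, 3.14% of Per1-/- and 9.74% of Per2-/-, and cluster 4 held 16.01%, 0.903% and 48.03%. On that day Cdkn2a was at 515 CPM in cluster 1, 135 CPM in cluster 0 and 165 CPM in cluster 4, and Ccng1 at 194, 114 and 60.2 CPM. Within clusters 0 and 1 the differences from WT were -0.21 ± 0.11 and -0.28 ± 0.11 for Ccng1, -0.59 ± 0.20 and -0.56 ± 0.20 for Cdkn2a and -0.28 ± 0.13 and -0.39 ± 0.13 for Cdkn1a, and none was called. The part of the clusters in the differences by genotype was not tested. In neuron-like cells Cdkn2a stood at 100.4, 66.2 and 64.0 CPM in WT and at 56.1, 35.4 and 40.4 CPM in Per2-/-, a difference of -0.78 ± 0.11 (adjusted p = 0.062), the nearest to the threshold among the 10 genes. It was lower in Per2-/- than in WT on each of the 3 days, and within clusters 8 and 16 it was at -0.82 ± 0.12 (adjusted p = 0.051). The call was made without Per2-/- on day 4 (-0.75) and without Per2-/- on day 10 (-0.89).

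The interaction of genotype and class gave 1 call. Ccng1 in Per2-/- against WT was relatively higher in macrophage-like than in fibroblast-like cells by 0.79 ± 0.17 (adjusted p = 0.037), where 2.11% of genes were called. Over the fits that left out 1 library the value lay between 0.61 and 0.92, and the call was kept in 2 of the 9. For Per1-/- in macrophage-like cells (0.0729% of genes called) and for Per1-/- and Per2-/- in neuron-like cells (0.0% and 0.00607%) edgeR called 0 of the 10 genes and DESeq2 0. In edgeR 2275, 742 and 846 genes had an unadjusted p below 0.05, and DESeq2 called 71, 2 and 25 of all genes.

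Dividing cells were set against the others next, because arrest genes are known to vary with the cell cycle. A cell was taken as cycling when, after thinning to 3000 UMI, at least 0.3% of them came from the list of cell cycle genes and as non-cycling when less than 0.1% did. The former were 1589 of 39065 fibroblast-like cells (1.01% to 8.77% per library) and 1000 of 6433 macrophage-like cells (3.80% to 33.9%), but 3 of 6747 neuron-like cells, so the comparison was made in the first 2 classes. In fibroblast-like cells 8 of the 10 genes differed between cycling and non-cycling cells of the same library, against 53.2% of all genes. Cycling cells had a higher median UMI count per cell (27878 against 22846 in fibroblast-like and 29457 against 21519 in macrophage-like cells).

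Cdkn1b was higher in cycling cells of both classes, although p27 is an inhibitor of the cell cycle whose protein is known to be controlled largely by degradation. In fibroblast-like cells it was at 100.1 to 124 CPM (median 115) in cycling and at 66.8 to 94.0 CPM (median 77.3) in non-cycling cells, higher in 9 of 9 libraries with no overlap (0.46 ± 0.06, adjusted p = 7.6e-06). In macrophage-like cells it was at 38.2 to 60.1 CPM against 21.7 to 38.7 CPM, again in 9 of 9 (0.65 ± 0.07). Trp53 was higher too, by 0.33 ± 0.04 in fibroblast-like cells (median 95.5 against 71.2 CPM) and by 0.53 ± 0.05 in macrophage-like cells (median 92.3 against 59.1 CPM).

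The other inhibitors were lower in cycling fibroblast-like cells: Cdkn2b by -0.65 ± 0.08, Cdkn1c by -0.61 ± 0.10, Cdkn1a by -0.48 ± 0.08 and Cdkn2a by -0.44 ± 0.07. Of the p53 targets, Sesn2 (-0.72 ± 0.07) and Plk2 (-0.31 ± 0.09) were lower and Mdm2 (-0.12 ± 0.06) and Ccng1 (-0.14 ± 0.07) did not pass. Cdkn1a was not absent from cycling cells, at 114 to 272 CPM against 163 to 421 CPM. In macrophage-like cells, where 57.0% of genes were called, Mdm2 was also higher (0.21 ± 0.06) and Ccng1 was lower (-0.34 ± 0.07), whereas Cdkn1a did not pass (0.02 ± 0.07), nor did the remaining 5. Of the 29 other p53 targets in fibroblast-like cells 5 were higher and 13 lower in cycling cells, where 53.2% of all genes were called, with a median of -0.16 against -0.03 for all genes.

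**Figure D3:**
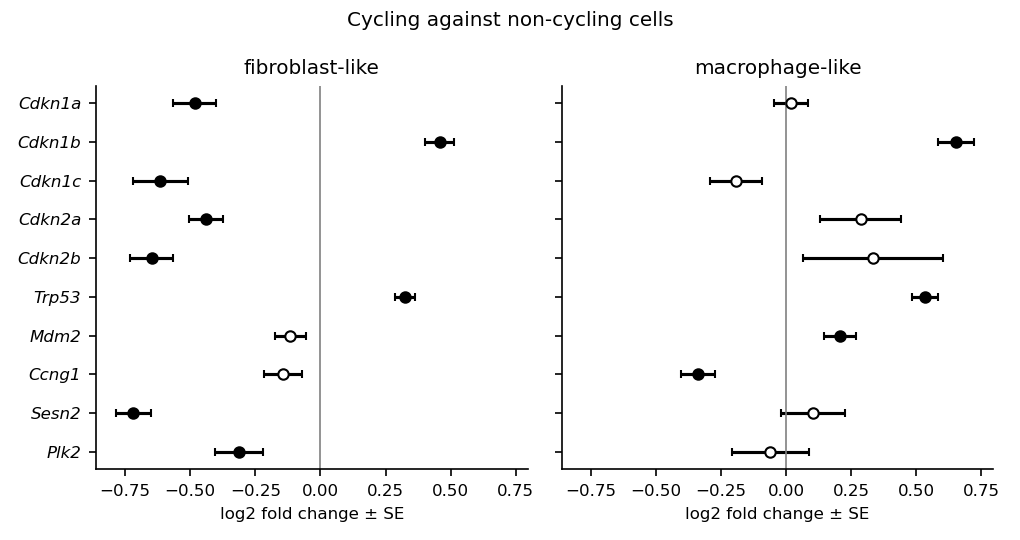
Log2 fold change of each gene between cycling and non-cycling cells of the same library in fibroblast-like and macrophage-like cells, with bars for 1 SE and filled points where the adjusted p of edgeR is under 0.05. Cdkn1b and Trp53 lie above 0 in both classes, and Cdkn1a lies at -0.48 in fibroblast-like and at 0.02 in macrophage-like cells.

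Cells with much Cdkn1a transcript were compared with cells in which thinning left none, to see which other genes of the group they carried. Many of the latter hold some Cdkn1a at full depth, since a median of 71.7% of fibroblast-like cells had a UMI of it before thinning. After thinning of each cell to 3000 UMI, cells with at least 3 UMI of Cdkn1a were set against cells with 0 UMI of the same library and class, and the counts of all other genes were summed unthinned. In fibroblast-like cells this gave 3342 cells with 3 UMI or more (3.93% to 13.7% per library), 25184 with 0 and 10539 in between. Of the other 9 genes, 7 were higher and 2 lower in the cells high in Cdkn1a, against 46.1% of all genes called and 23.1% called higher. Median UMI was 26390 in the high and 22102 in the low cells, and the median share of mitochondrial UMI 5.83% and 5.67%, and their part in the differences was not tested.

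Ccng1 was at 165 to 395 CPM (median 286) in the high and at 42.4 to 118 CPM (median 73.4) in the low fibroblast-like cells, a log2 fold of 1.95 ± 0.04 (adjusted p = 3.2e-12) with no overlap. Mdm2 was at 70.5 to 142 CPM against 28.9 to 42.9 CPM (1.52 ± 0.05) and Sesn2 at 46.6 to 60.7 against 24.4 to 31.8 CPM (0.90 ± 0.03). Both groups were separate for these genes as well. The INK4 genes, which are not classical p53 targets, were higher in the same cells: Cdkn2b at 51.8 to 77.1 against 13.7 to 31.2 CPM (1.503 ± 0.06) and Cdkn2a at 290 to 573 against 107 to 263 CPM (1.22 ± 0.06). Plk2 was higher by 0.57 ± 0.05 and Trp53 by 0.15 ± 0.03. In cluster 0 alone, a restriction chosen after the data were seen, Trp53 was at -0.04 ± 0.04 and Ccng1, Mdm2, Cdkn2b and Cdkn2a were at 1.70, 1.36, 1.31 and 1.29. Cdkn1b (-0.51 ± 0.04) and Cdkn1c (-0.47 ± 0.06) were lower in the high cells in 9 of 9 libraries.

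Other p53 targets followed the same direction in fibroblast-like cells. Of 29 tested, 25 were higher and 0 lower, with a median of 1.28 against -0.01 for all genes. The largest differences were in Perp (3.21 ± 0.20), Pidd1 (2.56 ± 0.12) and Pmaip1 (2.55 ± 0.13), which encode proteins of p53-dependent cell death. Of the regulators of p53, 2 of 12 were higher and 2 lower. Cell cycle genes were lower in 31 of 47 and higher in none, with a median of -0.60. Senescence-associated genes were split, with 7 of 17 higher, such as Mmp3 (1.42 ± 0.09), and 6 lower, such as Il6 (-1.88 ± 0.35).

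In neuron-like cells 4 libraries held at least 20 cells with 3 UMI or more of Cdkn1a. They were the 3 libraries of day 4 and WT on day 7 (21 such cells), so no library of day 10 entered. Of the other 9 genes 7 were higher, against 14.7% of all genes called and 7.12% called higher. Ccng1 was at 340 to 408 CPM in the high and at 33.6 to 57.1 CPM in the low cells (2.83 ± 0.08), and Sesn2, which was low in the class as a whole, was at 22.1 to 43.3 CPM against 2.18 to 6.14 CPM (2.52 ± 0.23). Plk2 (1.36 ± 0.10), Cdkn2b (1.20 ± 0.13), Cdkn2a (0.82 ± 0.09), Mdm2 (0.79 ± 0.08) and Trp53 (0.44 ± 0.10) were higher in 4 of 4 libraries. Cdkn1b was lower (-0.40 ± 0.09), a call lost without WT on day 4, and Cdkn1c did not pass (0.05 ± 0.08). Of 28 other p53 targets 20 were higher and 0 lower, led by Psrc1 (3.76 ± 0.11), Pmaip1 (3.61 ± 0.45) and Fas (3.58 ± 0.40). Median UMI was 14393 in the high and 9856 in the low cells.

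In macrophage-like cells 6 libraries entered: Per1-/- on days 4, 7 and 10, Per2-/- on days 7 and 10, and WT on day 7 only (23 high cells). In them 3 of the other 9 genes were higher, against 4.54% of all genes called and 2.48% called higher. These were Sesn2 (15.1 to 24.8 against 6.29 to 7.19 CPM, 1.51 ± 0.17), Ccng1 (130 to 183 against 65.4 to 80.4 CPM, 1.21 ± 0.07) and Mdm2 (54.6 to 83.9 against 28.4 to 46.5 CPM, 0.94 ± 0.09), each higher in 6 of 6 libraries. Cdkn2a, Cdkn2b, Plk2, Trp53, Cdkn1b and Cdkn1c did not pass. Of 26 other p53 targets 12 were higher and 0 lower, such as Phlda3 (2.50 ± 0.13). Median UMI differed little here, with 22312 in the high and 22057 in the low cells. In the libraries that entered, Ccng1, Mdm2 and Sesn2 were thus higher in cells high in Cdkn1a in all 3 classes, as were p53 targets of the longer list.

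**Figure D4:**
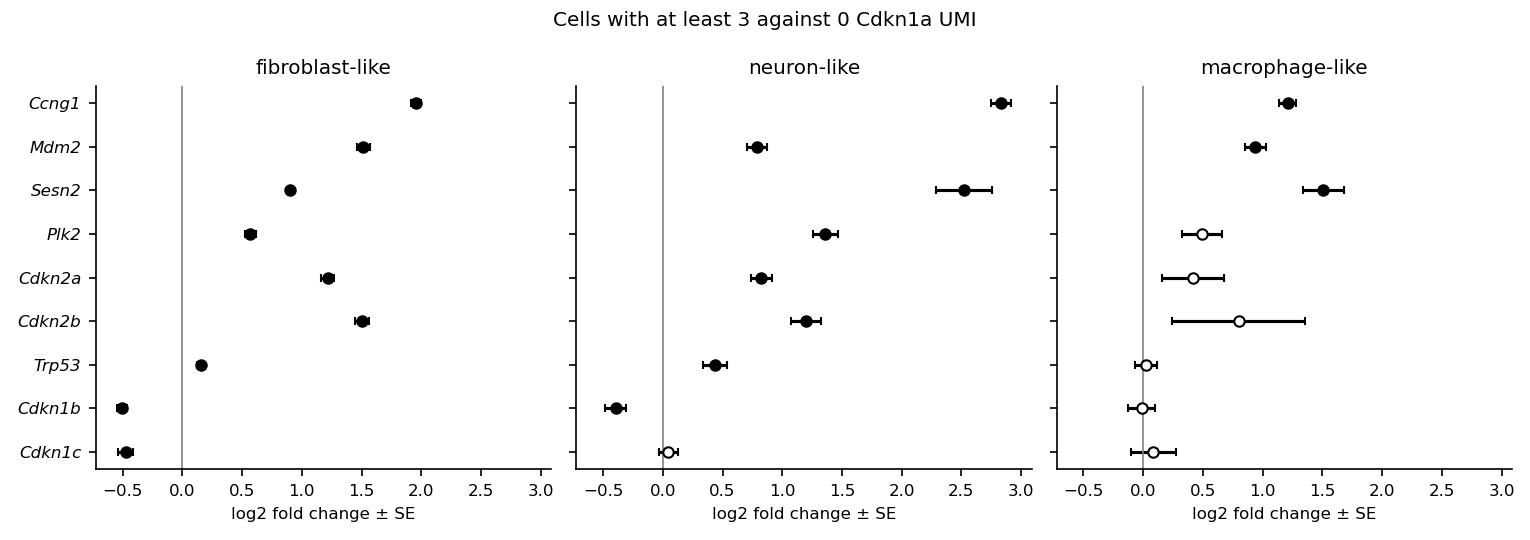
Log2 fold change of the other 9 genes between cells with at least 3 thinned UMI of Cdkn1a and cells with 0, in fibroblast-like (9 libraries), neuron-like (4) and macrophage-like cells (6), with bars for 1 SE and filled points where the adjusted p of edgeR is under 0.05. Ccng1 lies at 1.95, 2.83 and 1.21, whereas Cdkn1b and Cdkn1c lie below 0 in fibroblast-like cells.

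Cdkn2a was used in the same way in fibroblast-like cells, where 15320 cells had at least 1 thinned UMI and 23745 had 0. Below, cells with and without Cdkn2a mean these groups after thinning. Many of the latter hold some Cdkn2a, since a median of 83.3% of fibroblast-like cells had a UMI of it before thinning. Here 38.5% of all genes were called. Its neighbour Cdkn2b was higher in the cells with Cdkn2a by 0.95 ± 0.04, and so were Cdkn1a (0.75 ± 0.04; 250 to 491 CPM, median 361, against 123 to 286 CPM, median 215), Ccng1 (0.73 ± 0.04), Mdm2 (0.52 ± 0.05) and Sesn2 (0.17 ± 0.03), each in 9 of 9 libraries. At equal depth Cdkn1a was found in a median of 46.5% of the cells with Cdkn2a and 30.6% of those without. Trp53 (-0.01 ± 0.02) and Plk2 (-0.11 ± 0.05) did not pass.

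Cdkn1c was lower in the cells with Cdkn2a, at 583 to 1378 CPM (median 778) against 990 to 1590 CPM (median 1258), by -0.64 ± 0.06 in 9 of 9 libraries, and Cdkn1b was lower by -0.24 ± 0.03. The 2 sets of cells differed in their clusters: cluster 1 held a median of 21.6% of the cells with Cdkn2a and 6.56% of those without over libraries, and cluster 0 held 16.3% and 28.1%. Within cluster 0 alone, chosen after the data were seen, Cdkn1c differed by -0.38 ± 0.06 and Cdkn1a by 0.77 ± 0.05, and within cluster 1 alone by -0.53 ± 0.11 and 0.76 ± 0.12, with each of these called. Of 29 other p53 targets 21 were higher and 1 lower in the cells with Cdkn2a (median 0.35 against -0.0032 for all genes). Median UMI was 22534 and 23407 in the cells with and without Cdkn2a.

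Across all 60 sums of a class and library with at least 20 cells, Cdkn1a, Cdkn2a and Cdkn1c were compared with other genes by Pearson's r of log2(CPM + 1). The comparison covered 9719 genes with a mean of at least 10 CPM. The sums share libraries, and the classes set most of the spread, so r is given as a description. The genes most like Cdkn1a were Map3k20 (0.791), Ccng1 (0.732), Ecscr (0.715), Efr3a (0.712) and Rhoj (0.712), and Trp53 ranked 1529 with 0.286. Those most like Cdkn2a were Rflnb (0.919), Efna4 (0.918), P3h4 (0.918), Ephb4 (0.915) and its neighbour Cdkn2b (0.906). Svil (0.950), Lrrc17 (0.936), Enox1 (0.912), Ttc28 (0.906) and Tceal9 (0.905) were most like Cdkn1c, and r between Cdkn1c and Cdkn2a was 0.753. The level of Trp53 transcript thus ran less with Cdkn1a than that of the p53 target Ccng1 did over the same sums.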

How the data were processed

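Single-cell suspensions of 9 cultures were profiled with 10x Genomics 3′ chemistry. The authors aligned reads to mm10 and counted UMI with Cell Ranger, and the deposited matrices hold raw UMI counts per gene and barcode. The file headers name Cell Ranger 4.0.0 for days 4 and 7 and 6.0.0 for day 10, whereas the submitters' processing notes and the study's methods name 7.1. The feature tables hold 31053 and 32285 genes. Genes were joined by identifier, which left 30406, of which 597 carry another symbol in the other table.

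Barcodes below 3000 UMI or above 20% mitochondrial UMI were dropped, and doublets were removed with Scrublet at 0.8% per 1000 barcodes (8442 of 81999). Cells were clustered with scanpy 1.11.5 and leidenalg 0.10.2 (2000 variable genes, 30 principal components, 15 neighbours, resolution 1), without the 10 genes, all gene lists and mitochondrial genes, and clusters were named from fixed markers. Counts were summed per library and class with at least 20 cells. Sums were tested with edgeR 4.0.16 in R 4.3.3 (quasi-likelihood F-test, two-sided, TMM, filterByExpr), p-values were adjusted by Benjamini-Hochberg across every gene in a fit, 0.05 was the threshold, and the SE was taken from the log2 fold and F. DESeq2 1.42.0, its size factors in edgeR, no filter, doublets kept, resolution 2, models without genotype or day, a Y-linked covariate, other cuts for the splits, and each library left out were alternatives. The script was tested on simulated counts. Intervals are exact Poisson intervals of 95% and cover counting error only. For thinning, 38 kept cells under 3000 UMI in the shared genes were left out. All 10 genes were examined in every comparison, and of each other list the text names at most the 3 called genes of largest fold. The 10 genes and all lists were chosen with earlier results of these data known.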

Additional observations from a re-analysis of the deposited data

Results flagged for a closer look

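The change from day 4 to day 10 differed between neuron-like and fibroblast-like cells by the interaction test of edgeR in 6 of the 10 genes, against 35.8% of all genes. The difference (neuron-like minus fibroblast-like, log2) was -2.21 ± 0.30 for Cdkn1c (adjusted p = 9.3e-05), -1.02 ± 0.24 for Cdkn1a (adjusted p = 0.0043), -0.93 ± 0.23 for Cdkn2b (adjusted p = 0.0059), -0.84 ± 0.23 for Cdkn2a (adjusted p = 0.011), -0.44 ± 0.10 for Trp53 (adjusted p = 0.0030) and 0.50 ± 0.17 for Ccng1 (adjusted p = 0.034). The call of Ccng1 was lost without any 1 of 5 libraries. That of Cdkn2a was lost without WT on day 4 or Per2-/- on day 10, and that of Cdkn2b without Per2-/- on day 10. In the restrictions to clusters, Ccng1 on day 10 was at -1.48 in neuron-like and at 0.03 in fibroblast-like cells, the opposite order. The interaction was not tested within clusters. Ccng1 also differed between macrophage-like and fibroblast-like cells in its change by day, by 1.32 ± 0.17 (adjusted p = 0.00037). In the contrast of Per2-/- with WT, Ccng1 differed between macrophage-like and fibroblast-like cells by 0.79 ± 0.17 (adjusted p = 0.037), a call that 7 of the 9 fits without 1 library did not make. The clusters of each class changed with the day, and day 10 and its Cell Ranger version cannot be told apart.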

How the results depend on the processing

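No paired analysis was possible by replicate number because each genotype and day has 1 library. Days were compared with genotype as a factor, and classes and splits with the library as a block. Single genes were followed where they were called, and Cdkn1a, Cdkn2a and Ccng1 also by genotype in fibroblast-like cells, so calls gained by other genes show only in the counts of genes called. Of their values under settings other than leaving out a library, 671 kept their direction and side of the threshold, 32 lost the call, 1 gained it and 5 reversed. The reversed values arose in restrictions to clusters, chosen after the data were seen, and at Leiden resolution 2: Ccng1 on day 10 was at 0.031 in fibroblast-like clusters 0 and 1, Cdkn2a on day 10 at 0.43 in neuron-like clusters 8 and 16, Trp53 on day 10 at 0.092 in macrophage-like cluster 9, Trp53 in cells high in Cdkn1a at -0.038 in fibroblast-like cluster 0, and Plk2 on day 7 in neuron-like cells at 0.029 with resolution 2. The cause was not tested.

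Counts of the 10 genes called that moved by over 1.5 times, or from or to 0, were as follows. Restricted to those clusters, the count on day 10 was 0 in place of 3 in fibroblast-like, 2 in place of 7 in neuron-like and 1 in place of 3 in macrophage-like cells. With DESeq2 it was 1 in place of 0 for Per2-/- in fibroblast-like cells, in neuron-like cells and in all cells, and 2 in place of 1 on day 7 in fibroblast-like cells. Smaller moves with DESeq2 were to 8 from 9 on day 7 in neuron-like cells, to 3 from 2 on day 10 in all cells, and to 6 from 7 in macrophage-like and to 8 from 7 in mesothelial-like cells against fibroblast-like cells. With no filter it was 1 in place of 0 for Per1-/- and 2 in place of 0 for Per2-/- in neuron-like cells. With no genotype term it was 0 in place of 1 on day 7 in fibroblast-like cells, 1 in place of 3 on day 10 in macrophage-like cells, and 0 in place of 2 on day 7 and 1 in place of 2 on day 10 in all cells. With days 4 and 7 only, a setting added after the data were seen, it was 0 on day 7 in fibroblast-like cells and in all cells. For the restrictions to clusters, no share of all genes called is given beside the counts.

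Over the fits that left out 1 library, the count ranged from 0 to 1 on day 7 in fibroblast-like cells, from 0 to 3 on day 10 in macrophage-like cells and from 0 to 2 on day 7 in all cells. It ranged from 0 to 1 for Per1-/- in all cells and for Per2-/- in macrophage-like and in neuron-like cells. For the interactions between macrophage-like and fibroblast-like cells it ranged from 0 to 1 for Per1-/-, from 0 to 2 for Per2-/- and from 1 to 2 for the day. Of the single genes followed, 1065 values kept the call or its absence and 78 lost it. Low counts limit Sesn2 in neuron-like cells (34 UMI in Per2-/- on day 7) and Cdkn2b in macrophage-like cells (10 UMI in Per1-/- on day 4).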
